A study of Mus musculus with 41 samples.

Results

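Integrins and laminins are the receptor and ligand chains that hold cells to the basement membrane, and their messenger RNA was followed here in mouse mesothelioma cell lines and tumors. The genes were chosen by name, 21 integrin chains (Itga1 to Itga11 with Itga2b, Itgav, and Itgb1 to Itgb8) and 10 laminin chains (Lama1 to Lama5, Lamb1 to Lamb3, Lamc1, and Lamc3), and all 31 were found among the 27197 genes of the count table. The question was whether receptor and ligand chains moved together, Itga6 and the laminins above all.

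A laminin is a trimer of an alpha, a beta, and a gamma chain that is secreted into the basement membrane, where it polymerizes into a sheet. An integrin is a dimer of an alpha and a beta chain that spans the cell membrane and links a matrix ligand outside to talin and actin inside. Integrins alpha 3 beta 1, alpha 6 beta 1, alpha 6 beta 4, and alpha 7 beta 1 are the laminin receptors, and mesothelial cells, from which mesothelioma arises, rest on a basement membrane that contains laminin.

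RNA had been sequenced from 15 samples of mice in which Adeno-Cre, an adenovirus with Cre recombinase under the CMV promoter, was injected into the pleural space to delete conditional alleles. The 3 BNC lines (JB81, JB91, and JB97) have the genotype Bap1-/-;Nf2-/-;Cdkn2ab-/- and the 3 NC lines (JB84, JB87, and JB93) Nf2-/-;Cdkn2ab-/-, so loss of Nf2 and Cdkn2ab is common to all and Bap1, a deubiquitinase, is the labelled difference between the groups. Each line grew out of a chopped piece of primary tumor, was used at early passage, and came from mice of mixed background. Of the 9 tumors, 5 are labelled BNC and 4 NC, but the columns of the count table do not show which is which, so the tumors were treated as 1 group and no genotypes were compared among them. The 9 columns other than those of the named lines were taken as the tumors, and 9 RNA samples are labelled as tumors. The names of those columns give only a tumor number such as B1. One tumor carries no such number. According to the methods, the mice were several weeks old when they were injected and drank water with the immunosuppressant cyclosporine A from before the injection until after it.

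Levels are given as CPM, the reads of a gene relative to the library's total after scaling by TMM, edgeR's correction for library makeup. Total counts were 12377675 to 23936922 in the lines and 8158740 to 21851974 in the tumors. The deleted parts of Bap1 and Nf2 are not counted apart from the rest of each gene, so their levels do not check the deletions. Bap1 was read at 43.2, 44.1, and 37.98 CPM in JB81, JB91, and JB97 and at 61.4, 60.6, and 64.2 CPM in JB84, JB87, and JB93 (log2 fold change -0.57, SE 0.13, edgeR adjusted p = 0.0390). Nf2 was read at 88.2 to 123 CPM in the lines, and Cdkn2a stayed at or below 0.566 CPM in all 6 lines. Mesothelial markers did not follow the label evenly. Msln, which encodes mesothelin, had 5 and 10 reads in JB81 and JB91 against 4465 in JB97 and 10933 to 44585 in the NC lines. The mesothelial transcription factor Wt1, however, had 1276 to 2982 reads in every line. The keratin Krt8 had 7, 1, and 144 reads in JB81, JB91, and JB97 against 3133 to 4734 in the NC lines. Krt18 had 0, 1, and 19 reads against 894 to 1890. Krt19 and Pdpn were lower in every BNC line as well, while Upk3b and Lrrn4 overlapped. JB81 and JB91 were nearly alike (biological coefficient of variation 0.0386), as were JB84 and JB93 (0.0578), while the other pairs within a genotype lay between 0.457 and 0.496. The labels give 3 samples a genotype and the pairs differed by more than counting noise, so they were kept as separate samples, but 2 libraries of 1 line would differ by more than that noise as well. Each pair may therefore be 1 line, in which case there are 2 lines a genotype and the SDs with n = 3 are too small. Counts of genes are also given with each pair summed into 1 sample. Among the tumors, B1 had the fewest reads and 38.5% of them on Gm42418 and Lars2, B2 had 4.83% on epithelial and airway markers, and B19, B45, and B1 had 2.54%, 2.20%, and 1.65% on striated muscle markers.

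Of the 2 promoters shown, one belongs to the ligand chain with the largest difference among members with a window, Lama5, and the other to the shared receptor chain, Itgb1, which moved the other way. Both windows run 5′ to 3′ from 250 bases before to 50 bases after the start of the gene (RefSeq, GRCm38.p6), Lama5 on the minus strand at chr2:180225810-180226109 and Itgb1 on the plus strand at chr8:128685404-128685703. Capitals mark the motifs GGGCGG (a GC box of the SP1 type), TGANTCA (AP-1), GGAATG (TEAD), and TATAAA, on either strand.
Lama5: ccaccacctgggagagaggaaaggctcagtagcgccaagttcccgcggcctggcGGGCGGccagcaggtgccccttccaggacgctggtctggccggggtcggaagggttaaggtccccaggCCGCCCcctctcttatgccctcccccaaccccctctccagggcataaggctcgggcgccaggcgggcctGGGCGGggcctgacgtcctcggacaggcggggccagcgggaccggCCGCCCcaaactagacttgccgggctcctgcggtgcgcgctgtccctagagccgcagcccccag
Itgb1: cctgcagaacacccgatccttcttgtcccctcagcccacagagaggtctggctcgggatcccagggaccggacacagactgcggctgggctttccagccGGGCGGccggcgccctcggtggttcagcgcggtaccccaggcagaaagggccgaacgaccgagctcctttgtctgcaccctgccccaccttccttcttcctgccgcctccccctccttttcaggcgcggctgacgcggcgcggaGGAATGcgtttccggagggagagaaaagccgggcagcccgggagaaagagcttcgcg
The Lama5 window held 4 GGGCGG boxes and none of the other motifs, with 24 CpG dinucleotides and 72.7% G and C. The Itgb1 window held 1 GGGCGG and 1 GGAATG, with 27 CpG and 67.3% G and C. No hits overlapped in either. GGGCGG stood in 10 of the 21 members with a window and in 35.7% of all 32851 promoter windows, TGANTCA in 2 members and 7.81% of windows, GGAATG in 3 members and 14.7%, and TATAAA in 0 members and 13.6%. Over all windows the median was 7 CpG and 52.7% G and C. The other 10 members had no window: Itga6, Itga7, Itgb2, Itgb3, Itgb4, Lama1, Lama3, Lama4, Lamc1, and Lamc3.

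The first comparison asked how loss of Bap1 on top of Nf2 and Cdkn2ab goes with these chains in culture. In the BNC lines the laminin receptor chain Itga6 was 24.1-fold lower than in the NC lines, the laminin chain Lama5 37.8-fold lower, and Lama1, another laminin alpha chain, 25.6-fold higher. Itgb2, a beta chain best known from leukocytes, was lower as well. At an adjusted p under 0.01 and more than 2-fold change by edgeR's quasi-likelihood test, 3 of the 23 members with enough reads were called: Lama1 rose, and Itga6 and Itgb2 fell. Among all 12376 genes tested 1.1% were called (0.444% higher and 0.654% lower). At an adjusted p under 0.05 the count was 9 members (39.1%), 2 higher and 7 lower, against 14.2% of all genes (5.78% higher and 8.45% lower). Every BNC line lay outside the range of the NC lines for 11 members (47.8%), 3 higher and 8 lower, against 41.5% of all genes (20.1% higher and 21.4% lower), so this share was near the background. The members' median log2 fold change was -0.18 and that of all genes was -0.0023.

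**Figure D1:**
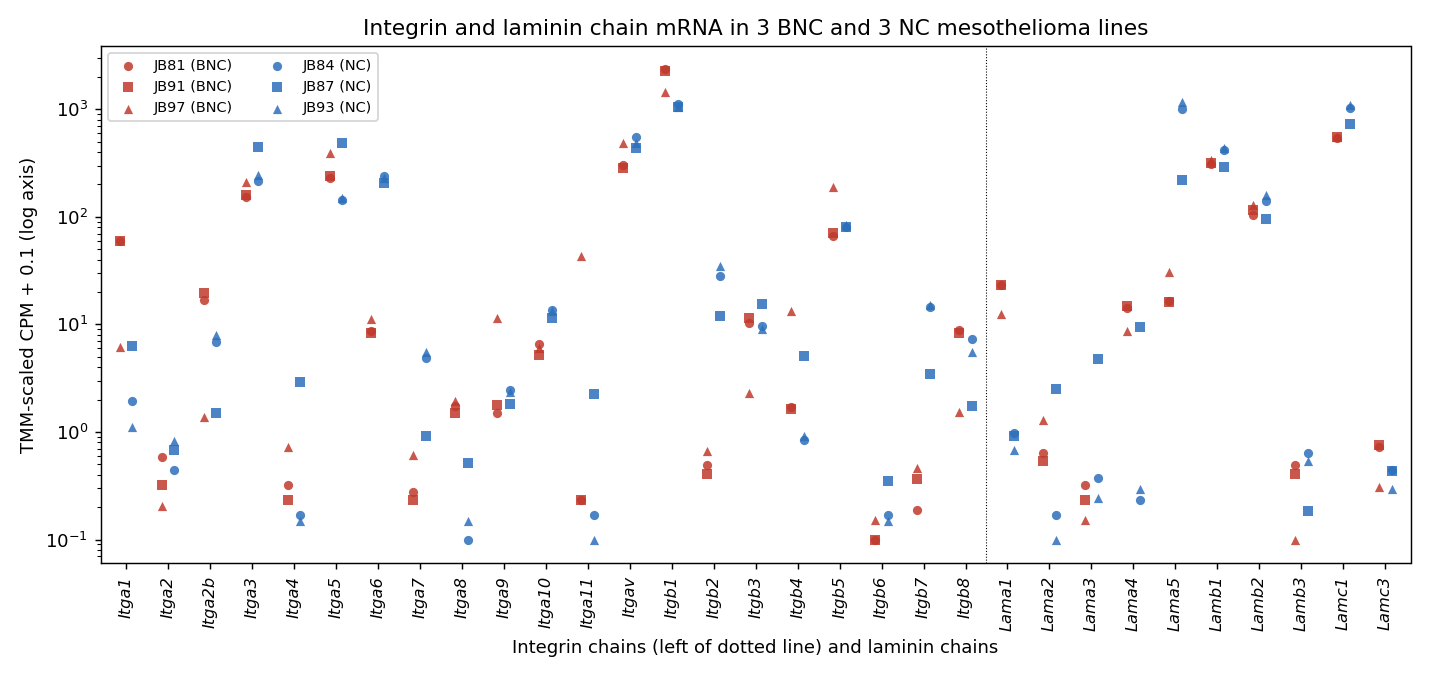
TMM-scaled CPM plus 0.1 on a log axis for the 31 chains, with 1 point per line in the 3 BNC lines (red) and the 3 NC lines (blue). Itga6 and Lama5 lie lower in every BNC line and Lama1 higher, and for many chains JB97 and JB87 lie away from the other lines of their genotype.

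These counts changed when the close pairs were summed. With JB81 and JB91 summed, and JB84 and JB93 summed, edgeR called 0 members (5 at an unadjusted p under 0.05) and 0.0% of all genes, while DESeq2 called 5 members and 4.5% of all genes on the summed counts. On the unsummed counts DESeq2 called 9 members, and 14.8% of all genes. Without JB81, JB91, JB84, or JB93 the edgeR count of members was also 0 (11, 11, 12, and 11 at an unadjusted p under 0.05), with adjusted p-values of Itga6 from 0.0189 to 0.0411. Of all genes 0.00774% were called without JB81 and 0.0% without JB91, JB84, or JB93. Without JB97 there were 4 members of 25 tested, against 7.57% of all genes, and without JB87 9 of 25, against 19.7%. With the run number of the columns as a term, edgeR called 0 members (11 at an unadjusted p under 0.05) and 0.00808% of all genes, and the adjusted p-values of Itga6, Lama1, and Itgb2 were 0.0252, 0.0329, and 0.0332.

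Among the laminin receptor alpha chains, Itga6 (chr2:71745616-71858416) stood out. It was read at 8.58, 8.21, and 11.2 CPM in JB81, JB91, and JB97 and at 239.7, 206, and 229 CPM in JB84, JB87, and JB93. The 3 BNC values and the 3 NC values each lay close together and did not overlap. JB97, which had more Msln reads than JB81 and JB91, lay next to them for Itga6. For the mesothelial keratin Krt8 JB97 was far below the NC lines too, at 7.41 CPM against 212 to 390. Krt18 was at 0.978 CPM in JB97 against 58.9 to 156 in the NC lines. For the other markers JB97 lay between the groups or within the NC range. Krt19 was at 85.6 CPM in JB97, 0.841 and 0.662 CPM in JB81 and JB91, and 278 to 333 CPM in the NC lines. Upk3b was at 166 CPM in JB97 and 162 to 209 CPM in the NC lines. The 8 mesothelial markers made up 0.0129 to 0.0659% of reads in the BNC lines and 0.226 to 0.351% in the NC lines. Of the 8, 2 were lower at an adjusted p under 0.05, Krt8 and Krt18 (edgeR adjusted p = 0.0457 and 0.0187). None of the 8 markers was at 0 in every line. Their part in the levels of these chains was not tested. The means of Itga6 were 9.32 ± 1.61 CPM (SD, n = 3) and 225 ± 16.96 CPM (SD, n = 3) (log2 fold change -4.59, SE 0.19, edgeR adjusted p = 0.00193). The line columns start with either of 2 run numbers, and within the columns of each the log2 differences were -4.68 and -4.54. With the close pairs summed the log2 fold change was -4.49, with an adjusted p of 0.188 by edgeR.

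Itga3, whose product pairs with beta 1 to bind laminin, was read at 153, 161, and 212 CPM in JB81, JB91, and JB97 and at 217, 451, and 245 CPM in JB84, JB87, and JB93. All BNC lines were below all NC lines, but by a margin of few CPM between JB97 and JB84, and the difference did not pass (log2 fold change -0.80, SE 0.32, edgeR adjusted p = 0.134). Scaled over all 15 libraries, Itga3 was at 206 CPM in JB97 and 202 CPM in JB84, so the groups then overlapped. Itga7, the laminin receptor chain of muscle, was scarce in culture, at 0.177, 0.132, and 0.515 CPM in JB81, JB91, and JB97 and at 4.74, 0.823, and 5.44 CPM in JB84, JB87, and JB93. It was lower in BNC lines (log2 fold change -3.74, SE 0.90, edgeR adjusted p = 0.0455), although JB81, JB91, and JB97 held only 4, 3, and 10 reads and JB87 only 10.

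Neither beta partner of Itga6 was called lower with it. Itgb1, which pairs with most alpha chains (chr8:128685654-128733200), was read at 2348, 2279, and 1457 CPM in JB81, JB91, and JB97 and at 1125, 1061, and 1057 CPM in JB84, JB87, and JB93. The groups did not overlap, and JB97 was the lowest of the BNC lines (log2 fold change 0.91, SE 0.23, edgeR adjusted p = 0.0486). Itgb4, the beta chain that pairs with alpha 6 alone, was read at 1.59, 1.55, and 13.2 CPM in JB81, JB91, and JB97 and at 0.745, 4.94, and 0.819 CPM in JB84, JB87, and JB93. The groups overlapped, and JB97 and JB87 were the highest lines of their genotypes (log2 fold change 1.35, SE 1.17, edgeR adjusted p = 0.432). Without JB97 its log2 fold change turned to -0.43.

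The ligand chains split. Lama5, an alpha chain found widely in mature basement membranes (chr2:180176373-180225859), was read at 16.5, 16.2, and 30.9 CPM in JB81, JB91, and JB97 and at 1007, 220.3, and 1174 CPM in JB84, JB87, and JB93. All BNC lines were low, and JB87 was the lowest of the NC lines, well below JB84 and JB93. The means were 21.2 ± 8.40 CPM (SD, n = 3) and 801 ± 509.5 CPM (SD, n = 3) (log2 fold change -5.24, SE 0.75, edgeR adjusted p = 0.0151), and the log2 differences within the columns of each run number were -4.82 and -5.68. Leaving out JB87, the log2 fold change was -5.66, but the NC group was then only JB84 and JB93, which may be 1 line. With the close pairs summed the log2 fold change was -4.82, with an adjusted p of 0.293 by edgeR.

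Lama1, an alpha chain known best from embryonic basement membranes (chr17:67697259-67822647), went the other way. It was read at 22.96, 23.1, and 12.4 CPM in JB81, JB91, and JB97 and at 0.880, 0.823, and 0.578 CPM in JB84, JB87, and JB93. All 3 NC lines were low, with 10 to 13 reads each, and JB97 was the lowest BNC line. The means were 19.5 ± 6.12 CPM (SD, n = 3) and 0.760 ± 0.161 CPM (SD, n = 3) (log2 fold change 4.68, SE 0.39, edgeR adjusted p = 0.00564), with within-run log2 differences of 4.58 and 4.65.

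Lama4, an alpha chain of vessel basement membranes, was read at 14.1, 14.8, and 8.54 CPM in JB81, JB91, and JB97 and at 0.135, 9.30, and 0.193 CPM in JB84, JB87, and JB93. Only JB84 and JB93 were nearly without it, and JB87 lay within the BNC range (log2 fold change 1.98, SE 1.46, edgeR adjusted p = 0.359). Lama2, the alpha chain of muscle laminin, was read at 0.531, 0.442, and 1.18 CPM in JB81, JB91, and JB97 and at 0.0677, 2.39, and 0 CPM in JB84, JB87, and JB93. Lama3, the alpha chain of an epithelial laminin, was read at 0.221, 0.132, and 0.0515 CPM in JB81, JB91, and JB97 and at 0.271, 4.69, and 0.144 CPM in JB84, JB87, and JB93. Both were too low in most lines to be tested, with JB87 the highest line.

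Lamc1, the gamma chain of nearly all laminins (chr1:153218922-153332786), was read at 537, 548, and 547 CPM in JB81, JB91, and JB97 and at 1028, 734, and 1107 CPM in JB84, JB87, and JB93. The 3 BNC lines were alike and below every NC line (log2 fold change -0.81, SE 0.19, edgeR adjusted p = 0.0440). Lamb1, its most common beta partner, was read at 313, 315, and 336 CPM in JB81, JB91, and JB97 and at 415, 290.4, and 438 CPM in JB84, JB87, and JB93, with overlapping groups (log2 fold change -0.25, SE 0.19, edgeR adjusted p = 0.378). Lamb2, a beta chain of muscle and kidney basement membranes, was read at 105, 115, and 129.8 CPM in JB81, JB91, and JB97 and at 139.9, 95.1, and 159.8 CPM in JB84, JB87, and JB93. These groups overlapped too (log2 fold change -0.18, SE 0.22, edgeR adjusted p = 0.583). Lamb3, the beta chain that assembles with Lama3, and Lamc3, a gamma chain of limited distribution, were too scarce to test. Lamb3 was read at 0.398, 0.309, and 0 CPM in JB81, JB91, and JB97 and at 0.542, 0.0823, and 0.433 CPM in JB84, JB87, and JB93, and Lamc3 at 0.619, 0.662, and 0.206 CPM in JB81, JB91, and JB97 and at 0.339, 0.329, and 0.193 CPM in JB84, JB87, and JB93.

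Set beside Itga6, 2 of the 6 laminin chains tested were lower in BNC lines at an adjusted p under 0.05 (Lama5 and Lamc1), 1 was higher (Lama1), and 3 did not pass (Lama4, Lamb1, and Lamb2). Of its receptor partners, Itgb1 was just past that level and Itgb4 did not pass. The adjusted p of Itgb1 was over 0.05 in 13 of 16 alternatives, at 0.0503 to 0.525, and that of Lamc1 in 11 of 16, at 0.0604 to 0.516. With 3 lines a group, no correlation across lines was computed.

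Levels per length show the makeup of the alpha chains. The CPM of each gene was divided by the length of its merged exons, so that an isoform with fewer exons would be read too low. Lama5 made up 93.1 to 99.9% of the summed level per kilobase of the 5 laminin alpha chains in the NC lines and 28.1 to 56.8% in the BNC lines, where Lama1 made up 26.8 to 47.03% and Lama4 14.8 to 24.2%. The summed level itself was 4.65 to 4.76 CPM per kilobase in BNC lines and 19.5 to 96.98 in NC lines. Thus no BNC line reached the lowest NC line. Of the laminin receptor alpha chains, Itga3 made up 96.5 to 96.8% in the BNC lines and 58.3 to 77.5% in the NC lines. Itga6 made up 3.12 to 3.43% and 22.4 to 40.8%.

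**Figure D2:**
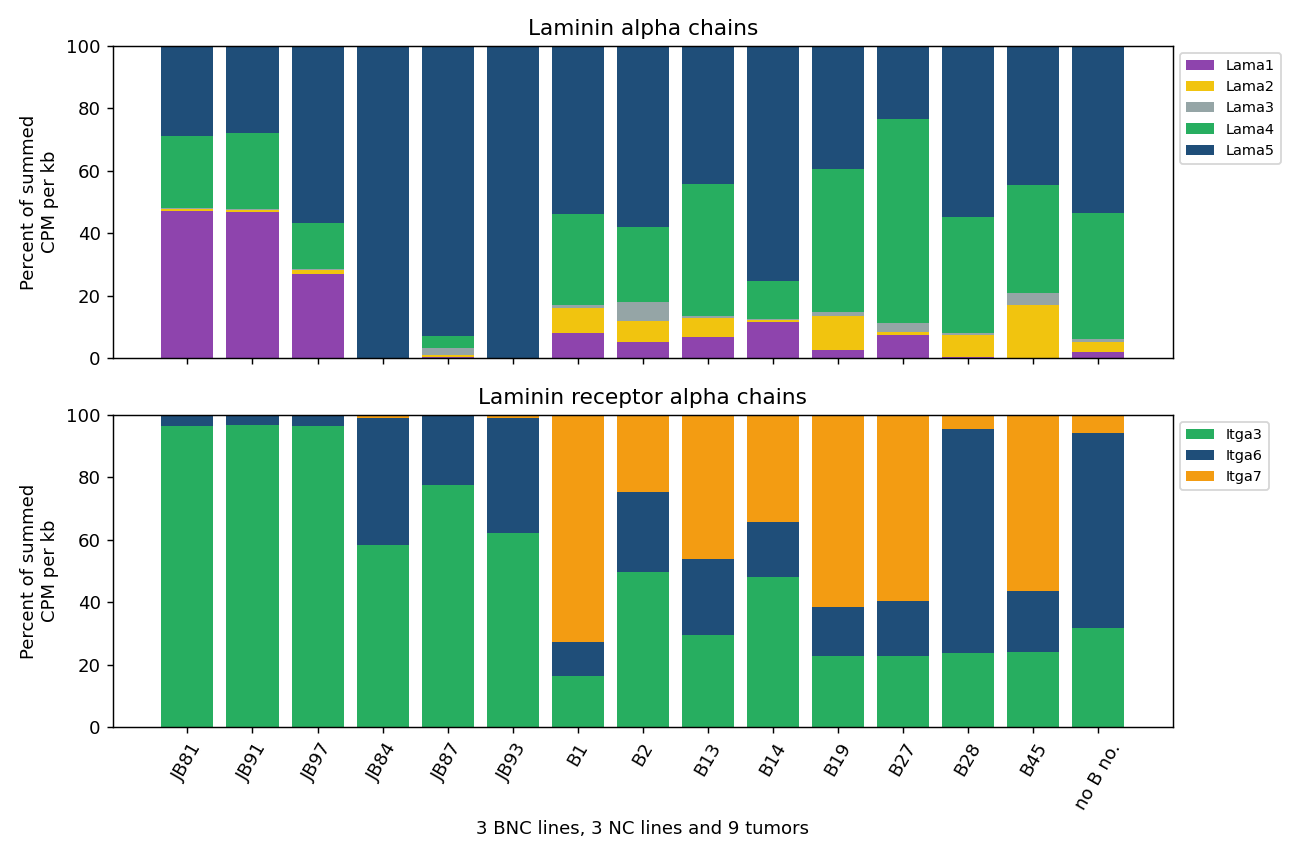
Stacked bars of the percent that each gene took of the summed CPM per kilobase, for the 5 laminin alpha chains (top) and the 3 laminin receptor alpha chains (bottom), with 1 bar per library. Lama5 fills nearly the whole bar in JB84 and JB93, Lama1 and Lama4 appear in the BNC lines, and Itga7 appears in the tumors.

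Outside the laminin receptors, the leukocyte beta chains had their lower values in the BNC lines, and Itgb7 passed only the adjusted p under 0.05. Itgb2 (chr10:77530252-77565708), the beta chain of the leukocyte integrins, was read at 0.398, 0.309, and 0.566 CPM in JB81, JB91, and JB97 and at 28.4, 11.9, and 34.6 CPM in JB84, JB87, and JB93. Every BNC line held 7 to 11 reads and every NC line 145 to 719, with no overlap (log2 fold change -5.87, SE 0.55, edgeR adjusted p = 0.00716). Itgb7, the partner of alpha 4 in lymphocytes, was read at 0.0885, 0.265, and 0.360 CPM in JB81, JB91, and JB97 and at 14.4, 3.37, and 15.2 CPM in JB84, JB87, and JB93, again without overlap (log2 fold change -5.51, SE 0.83, edgeR adjusted p = 0.0166). The leukocyte markers made up at most 0.000614% of the reads of a line, none of the 2 tested differed between the genotypes at an adjusted p under 0.05, and 5 of 8 had at most 3 reads in every line, Ptprc among them.

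The collagen and RGD receptor chains gave few calls. Itga10, a collagen receptor chain, was read at 6.46, 5.08, and 5.92 CPM in JB81, JB91, and JB97 and at 13.6, 11.4, and 13.3 CPM in JB84, JB87, and JB93. All BNC lines were lower (log2 fold change -1.13, SE 0.22, edgeR adjusted p = 0.0281), but 33.5% of its exon length is shared with Gm42957 and the strand setting of the counting is not given, so reads of either gene may be mixed. Itga1, another collagen receptor chain, was read at 58.97 and 59.3 CPM in JB81 and JB91 but at 6.12 CPM in JB97, next to 6.17 CPM in JB87. Itga11, a collagen receptor chain of fibroblasts, was high in JB97 alone (43.5 CPM), and the other 5 lines had at most 2.14 CPM. Itga5 and Itgav, which bind the RGD motif of fibronectin and vitronectin, were abundant in all lines, at 143 to 483 and 285 to 556 CPM, and their groups overlapped. Of the members tested, Itga1, Itga2b, Itga5, Itga8, Itga9, Itgav, Itgb3, Itgb5, and Itgb8 had adjusted p-values from 0.0631 to 0.843 by edgeR. Itga2, Itga4, Itga11, Itgb6, Lama2, Lama3, Lamb3, and Lamc3 did not have enough reads to be tested, and Itgb6, a partner of alpha V in epithelia, had at most 3 reads in any line.

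Of 39 other genes of the pathway (17 adaptors, 7 basement membrane partners, 8 other receptors or partners, and 7 other ligands), 37 were tested and 2 were called in the lines, where 1.1% of all genes were. Tln2, a talin that links integrin tails to actin, was read at 229, 225, and 146 CPM in JB81, JB91, and JB97 and at 32.9, 37.4, and 34.2 CPM in JB84, JB87, and JB93. All BNC lines were higher (log2 fold change 2.52, SE 0.22, edgeR adjusted p = 0.00599). Spp1, the secreted integrin ligand osteopontin, was read at 17.6, 16.4, and 14.6 CPM in JB81, JB91, and JB97 and at 204, 144, and 193 CPM in JB84, JB87, and JB93, and all BNC lines were lower (log2 fold change -3.48, SE 0.20, edgeR adjusted p = 0.00347). At an adjusted p under 0.05, which 14.2% of all genes passed, there were 9, 5 adaptors (Tln2, Fermt2, Ilk, Lims1, and Flna) and the 2 collagen IV chains Col4a1 and Col4a2 higher and Cav1 and Spp1 lower. Apart from Tln2 and Spp1 these were named after their values were seen, and 89.7% of the exon length of Ilk is shared with other genes. The pathway genes' median log2 fold change was 0.27. The edgeR calls on Tln2 and Spp1 were lost with the pairs summed, as were those on the members. On the summed counts edgeR called 0 of the pathway genes and 0.0% of all genes, and DESeq2 called 4 and 4.5%.

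The second comparison set the 9 tumors beside the 6 lines, so that chains of cultured cells can be read against those of whole tissue. In tumors 15 of the 31 members rose. Itga7 rose most among the laminin receptor chains, by 7.19 on the log2 scale, and Lama2, Lama4, Lama3, and Itgb4 rose as well, while Itga3 and Lamc1 fell. All 31 members were tested, and 17 were called (15 higher and 2 lower), 54.8% against 39.7% of all 15675 genes (28.2% higher and 11.5% lower). The members' median log2 fold change was 1.97 and that of all genes was 0.38. At an adjusted p under 0.05 there were 22, 18 higher and 4 lower, against 61.2% of all genes (22.2% lower). The tumors and lines did not overlap for 8 members (25.8%), all higher in tumors, against 25.3% of all genes (16.4% higher and 8.93% lower). All tumor columns start with a further run number that no line column has, so tissue and run cannot be told apart. In bulk RNA, fewer cells of a type and less RNA in each cell cannot be told apart either. Values in this comparison are scaled over all 15 libraries.

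**Figure D3:**
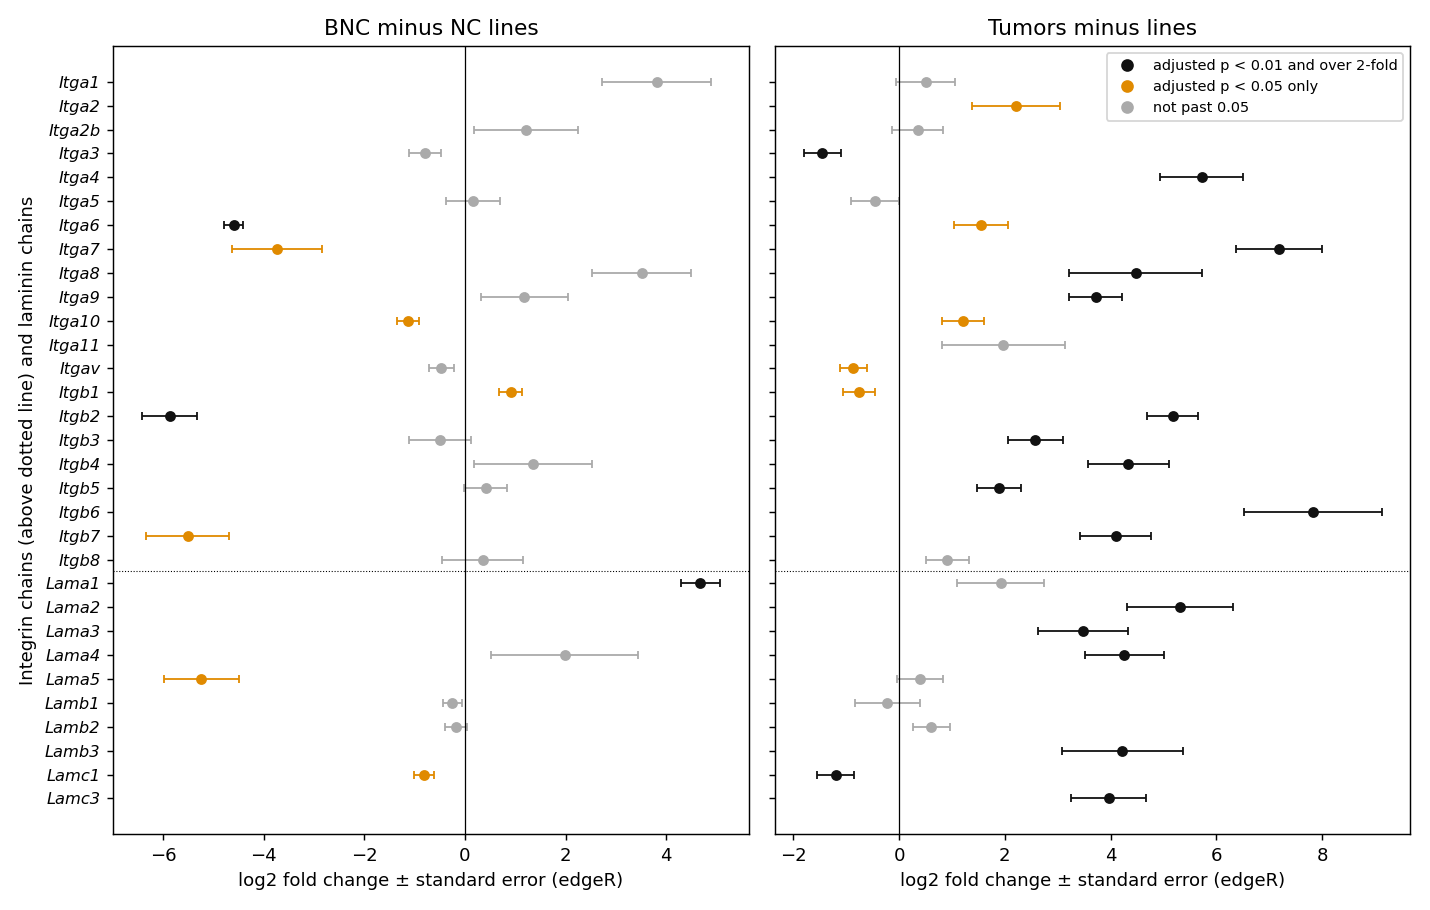
Log2 fold change with its standard error from edgeR for each chain, BNC minus NC lines on the left (23 chains tested) and tumors minus lines on the right (31 chains tested), black where adjusted p was under 0.01 with more than 2-fold change, orange where it was under 0.05 only. Itga6 and Lama5 lie far to the left in the lines and Lama1 to the right, and most chains lie to the right in the tumors. The size for Itgb6 depends on the prior count, since no line had more than 3 reads.

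Of the laminin receptor chains, Itga7 was read at 0.124 to 5.11 CPM in the lines and 20.4 to 264 CPM in the tumors (median 169). Every tumor was above every line (log2 fold change 7.19, SE 0.81, edgeR adjusted p = 6.14e-06). Tumors B28 and the one without a number were the lowest, at 20.4 and 23.3 CPM. Striated muscle markers, a list that holds 5 genes, made up at most 0.00837% of reads in a line and 0.0155 to 2.54% in the tumors, where 4 of the 5 rose. Ckm, Myh6, and Mb had at most 3 reads in every line, Myh6 had none, and their part in the level of Itga7 was not tested. The share was 0.0155% in B14, which read Itga7 at 208 CPM, and 0.0425% and 0.0888% in B28 and the tumor without a number. Over the 9 tumors log2 CPM of Itga7 had an r of 0.58 with the log2 share.

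Itga6 was read at 36.05 to 364 CPM in the tumors (median 72.8). All 9 tumors were above every BNC line, 7 were below every NC line, and B28 and the tumor without a number were above all lines at 364 and 278 CPM. Against the mean of both line groups the difference did not meet the main threshold (log2 fold change 1.55, SE 0.50, edgeR adjusted p = 0.0153). Itga3 was read at 143 to 423 CPM in the lines and 29.8 to 206 CPM in the tumors (median 75.6), with 8 tumors below every line (log2 fold change -1.46, SE 0.35, edgeR adjusted p = 0.00250). Itgb4 was read at 0.692 to 12.9 CPM in the lines and 14.6 to 179.7 CPM in the tumors (median 49.4), so that no tumor overlapped with a line (log2 fold change 4.34, SE 0.76, edgeR adjusted p = 0.000255). Itgb1 was read at 993 to 2193 CPM in the lines and 427 to 1440.2 CPM in the tumors (median 704). It was below every line in 6 tumors but met neither the fold change nor the adjusted p of the main threshold (log2 fold change -0.76, SE 0.31, edgeR adjusted p = 0.0420).

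Among the ligand chains, Lama4 was read at 0.126 to 13.9 CPM in the lines and 63.5 to 180.2 CPM in the tumors (median 106), without overlap (log2 fold change 4.26, SE 0.75, edgeR adjusted p = 0.000252). Lama2 was read at 0 to 2.24 CPM in the lines and 3.33 to 76.3 CPM in the tumors (median 26.2), again without overlap (log2 fold change 5.32, SE 1.001, edgeR adjusted p = 0.000432). Lama5 lay at 50.9 to 381 CPM in the tumors (median 140.2), above every BNC line in all 9 tumors and below every NC line in 7, and its difference from the mean of both line groups did not pass (log2 fold change 0.40, SE 0.43, edgeR adjusted p = 0.438). Lama1 was read at 0.320 to 49.5 CPM in the tumors (median 11.2). Its tumors ranged from below every line (B45) to above every line (B14 and B13), and it did not pass (log2 fold change 1.92, SE 0.82, edgeR adjusted p = 0.0551).

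Lamc1, lower in tumors, was read at 501 to 1040.1 CPM in the lines and 98.99 to 565 CPM in the tumors (median 236) (log2 fold change -1.20, SE 0.35, edgeR adjusted p = 0.00862). It was below every line in 8 tumors, all but B13. Without the tumors B1, B2, B19, and B45, however, neither Itga3 nor Lamc1 was called and 14 of the 31 members were, all higher, against 30.8% of all genes. Lamb1 was read at 47.4 to 1091 CPM in the tumors (median 132), highest in B28 at 1091 CPM, and overlapped with the lines (log2 fold change -0.22, SE 0.62, edgeR adjusted p = 0.775). Lamb2 overlapped as well (log2 fold change 0.61, SE 0.35, edgeR adjusted p = 0.147). The scarce chains Lama3, Lamb3, and Lamc3 were called higher in tumors, at medians of 2.69, 2.57, and 5.49 CPM. The calls on Lama3 and Lamb3 were lost with the close pairs summed (edgeR adjusted p = 0.0138 and 0.0251) and without the 4 tumors named above (0.0198 and 0.0249). For both the highest tumor was B2, the tumor with the most epithelial marker reads, at 14.2 and 22.9 CPM. Of the 4 epithelial markers 3 rose in tumors, their summed share was 0.000343 to 4.83% of reads against at most 0.00109% in the lines, and Epcam, Sftpc, and Scgb1a1 had at most 3 reads in every line. Their part in these chains was not tested.

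The leukocyte beta chains were higher in tumors. Itgb2 was read at 0.290 to 32.5 CPM in the lines and 40.5 to 256 CPM in the tumors (median 94.4), without overlap (log2 fold change 5.17, SE 0.49, edgeR adjusted p = 1.17e-06). Itga4, which pairs with beta 1 or beta 7 to bind VCAM1, was read at 0.0452 to 2.62 CPM in the lines and 13.1 to 45.2 CPM in the tumors (median 24.8), without overlap (log2 fold change 5.72, SE 0.79, edgeR adjusted p = 3.62e-05). Itgb7 was read at 6.81 to 94.5 CPM in the tumors (median 17.7), with 7 tumors above every line (log2 fold change 4.09, SE 0.67, edgeR adjusted p = 0.000141). All 8 leukocyte markers rose in tumors, to a summed share of 0.0629 to 0.255%, and their part in these chains was not tested. Tyrobp and Cd3e had no reads in any line. Of the other marker lists, 5 of 6 endothelial, 5 of 5 fibroblast, 3 of 4 smooth muscle and pericyte, 4 of 5 striated muscle, 3 of 3 platelet, and 2 of 8 mesothelial markers rose in tumors and 0 fell.

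Of the 4 partners of alpha V, 3 were called higher in tumors. Itgb3, the beta chain of the vitronectin receptor, was read at 2.15 to 14.4 CPM in the lines and 21.2 to 146 CPM in the tumors (median 34.5), without overlap (log2 fold change 2.58, SE 0.52, edgeR adjusted p = 0.000726). Itgb5 was read at 108 to 697 CPM in the tumors (median 299.9), with 7 tumors above every line (log2 fold change 1.90, SE 0.42, edgeR adjusted p = 0.00133). Itgb6 was at or under 3 reads in every line, for which no fold change is given, and at 0.211 to 40.2 CPM in the tumors (median 3.97). Itgav fell short of the 2-fold change (log2 fold change -0.86, SE 0.26, edgeR adjusted p = 0.00994), with 6 tumors below every line. Itga9, which pairs with beta 1 and binds tenascin, was read at 19.7 to 83.8 CPM in the tumors (median 37.6), above every line in all tumors (log2 fold change 3.72, SE 0.50, edgeR adjusted p = 3.06e-05). Itga8, an RGD receptor chain, was called at 0.775 to 50.6 CPM in the tumors (median 1.997) (log2 fold change 4.47, SE 1.25, edgeR adjusted p = 0.00660), and its 2 highest tumors were B2 and B28. Without B2 its edgeR adjusted p was 0.0112, and without B28 it was 0.0101. The remaining members, Itga1, Itga2, Itga2b, Itga5, Itga10, Itga11, and Itgb8, were not called, and among them Itga2 and Itga10 had adjusted p-values under 0.05 by edgeR.

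**Figure D4:**
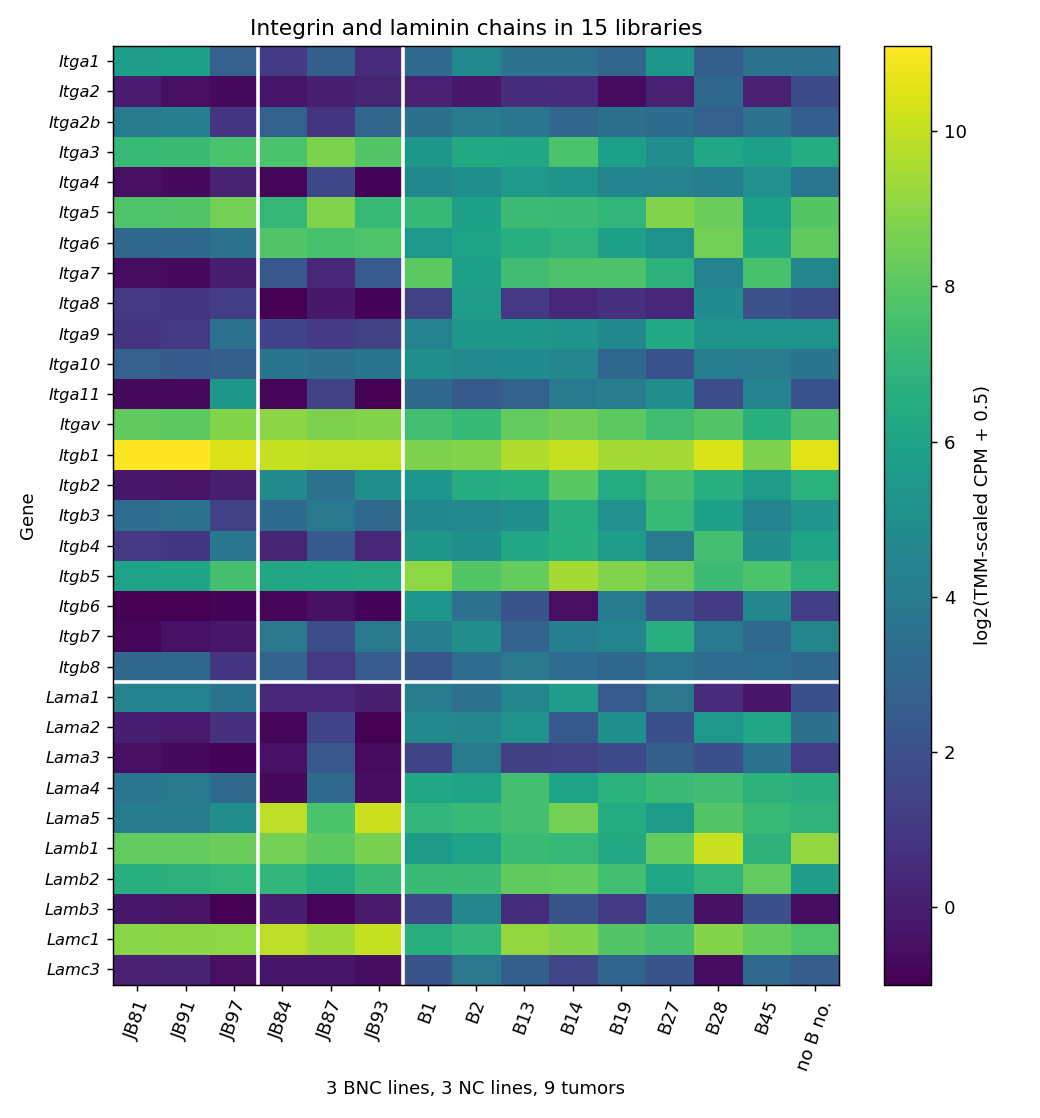
Heat map of log2 of the TMM-scaled CPM plus 0.5 for the 31 chains (rows) in the 3 BNC lines, the 3 NC lines, and the 9 tumors (columns), brighter for a higher level. Itga4, Itga7, Itga9, Itgb2, Itgb3, Itgb4, Lama2, and Lama4 are brighter in every tumor than in any line.

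Per length, the alpha chains of the tumors were made up as follows. Lama5 took 23.3 to 75.3% of the summed laminin alpha chain level per kilobase and Lama4 12.1 to 65.5%. Lama1 took 0.120 to 11.5%, and Lama2 took 0.632 to 16.97%. Among the laminin receptor alpha chains Itga7 took 4.51 to 72.8%, where no line exceeded 0.975%. Itga6 took 10.7 to 71.9%, most in B28 and the tumor without a number.

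Among the 39 other pathway genes 38 were tested and 16 were called in tumors, 6 higher and 10 lower, where 39.7% of all genes were called (28.2% higher and 11.5% lower). Fermt3, the kindlin of blood cells, was read at 0.456 to 0.814 CPM in the lines and 30.9 to 99.9 CPM in the tumors (median 51.6) (log2 fold change 6.49, SE 0.32, edgeR adjusted p = 5.19e-09). Icam1, a ligand of the leukocyte integrins, was read at 0.165 to 4.40 CPM in the lines and 17.98 to 407 CPM in the tumors (median 119.7) (log2 fold change 6.96, SE 0.98, edgeR adjusted p = 4.34e-05). Vtn, which encodes vitronectin, was at or under 3 reads in every line and at 0.337 to 20.6 CPM in the tumors (median 7.81). The lowest p-values among genes that fell were those of Ptk2, the focal adhesion kinase (log2 fold change -1.45, SE 0.18, edgeR adjusted p = 1.79e-05), Cav1, which encodes caveolin (log2 fold change -1.67, SE 0.25, edgeR adjusted p = 6.46e-05), and Hspg2, the basement membrane proteoglycan perlecan (log2 fold change -1.62, SE 0.26, edgeR adjusted p = 0.000116). In all 3 no tumor overlapped with a line. Of the 7 basement membrane partners 0 were called higher and 2 lower, and their median log2 fold change was -1.34.

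The third comparison asked whether chains that assemble or bind each other varied together from tumor to tumor. For 32 pairs, Pearson's r and Spearman's rho of log2 CPM were computed over the 9 tumors, with two-sided exact permutation tests and Benjamini-Hochberg adjustment over the 32. No pair passed an adjusted p under 0.05 by either measure, while 5 had an unadjusted p under 0.05 by r and 3 by rho. Of the 10 pairs of Itga6 with a laminin chain, 5 had a positive r. Of the 10 pairs of laminin chains that assemble with each other 9 had, and of the 12 pairs of integrin chains 7 had. Among all 14174 genes measured in the tumors 13.1% reached an r of 0.7 or more with Itga6 and 9.02% an r of -0.7 or less.

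By r the receptor partners of Itga6 gave the highest values, though no pair passed adjustment, and by rho Itga5 with Itgb1 lay between them (rho 0.75, exact permutation p = 0.0255, adjusted p = 0.258). Itgb4 was one of them (r 0.82, exact permutation p = 0.00631, adjusted p = 0.115, rho 0.80, permutation p = 0.0138, adjusted p = 0.258). Itgb1 was the other (r 0.82, exact permutation p = 0.00718, adjusted p = 0.115, rho 0.70, permutation p = 0.0432, adjusted p = 0.258). B28 and the tumor without a number are farthest from the median of Itga6, and without them r was 0.83 for Itgb4 and 0.50 for Itgb1, so the value for Itgb1 depends on them more. With library size in place of TMM, both pairs reached an adjusted p of 0.0291 by exact permutation.

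**Figure D5:**
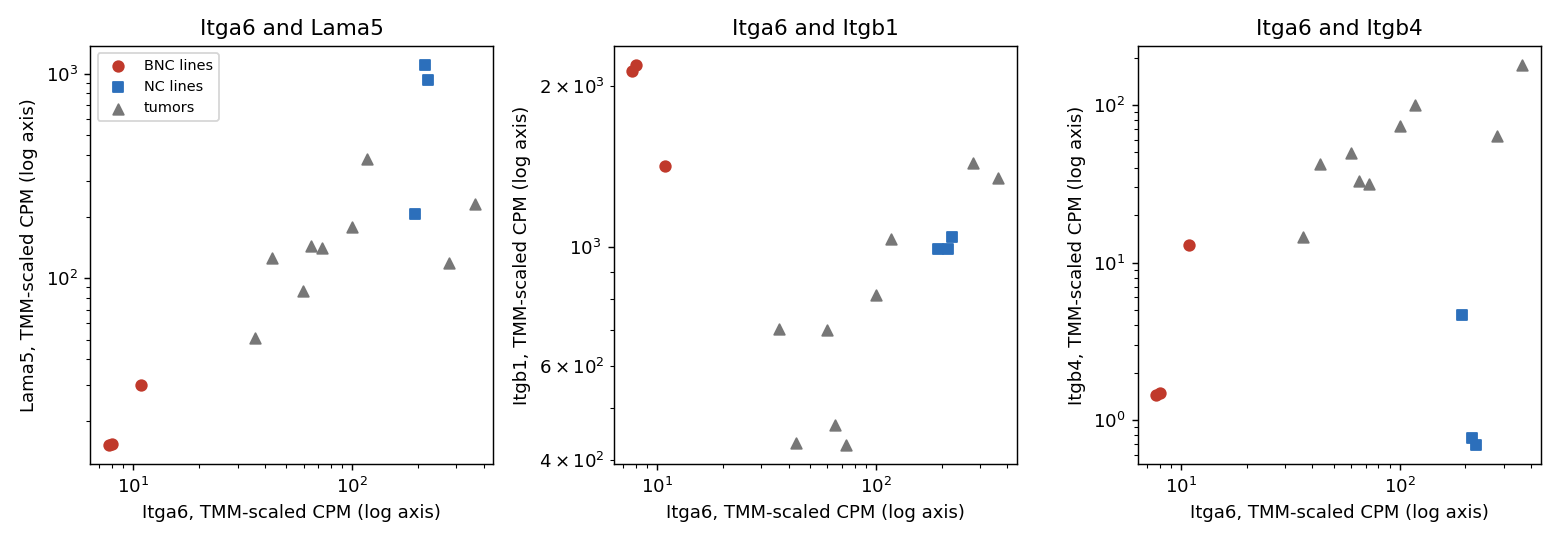
Itga6 against Lama5, Itgb1, and Itgb4, as TMM-scaled CPM on log axes, in the 3 BNC lines (red circles), 3 NC lines (blue squares), and 9 tumors (grey triangles). In the tumors Itgb1 and Itgb4 tend to be higher where Itga6 is higher, though neither pair passed the adjusted test. The BNC lines lie away from the tumors, low in Itga6 and high in Itgb1. The NC lines lie within the tumor range for Itga6 and Itgb1 and below it for Itgb4.

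Ligand chains varied in sign. Lamb1 had the highest r with Itga6 (r 0.76, exact permutation p = 0.0181, adjusted p = 0.144, rho 0.62, permutation p = 0.0857, adjusted p = 0.258), and without B28 and the tumor without a number r was 0.02, so that it rests on those tumors. Lama5 gave a lower value (r 0.55, exact permutation p = 0.125, adjusted p = 0.285, rho 0.67, permutation p = 0.0589, adjusted p = 0.258), with an r of 0.88 in the 7 tumors left. Lamc1 was similar (r 0.56, exact permutation p = 0.119, adjusted p = 0.285, rho 0.67, permutation p = 0.0589, adjusted p = 0.258), with an r of 0.81 in those 7. Lamb2 turned from -0.18 to 0.89 when the same tumors were left out. Lamb3 had a negative value (r -0.79, exact permutation p = 0.0127, adjusted p = 0.135, rho -0.60, permutation p = 0.0968, adjusted p = 0.258), with an r of -0.35 without them. Among assembly partners, only Lama3 and Lamb3, chains of the same epithelial laminin, had an unadjusted p under 0.05 by r (r 0.68, exact permutation p = 0.0490, adjusted p = 0.238, rho 0.67, permutation p = 0.0589, adjusted p = 0.258). Without B2 and B45, the tumors farthest from the median of Lama3, r was 0.52 for this pair. B2 was the tumor with the most epithelial marker reads.

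Shares of mitochondrial and marker reads moved with some of these chains too. For 9 chains and 10 shares of reads, r was computed over the 9 tumors on log2 scales. The values farthest from 0 were -0.86 for mitochondrial reads with Lamb1, -0.82 for smooth muscle and pericyte markers with Itga3, 0.79 for mesothelial markers with Itga3, -0.73 for mitochondrial reads with Itgb1, and -0.67 for smooth muscle and pericyte markers with Lama5. With Itga6 they were -0.61 for smooth muscle and pericyte markers, -0.58 for mitochondrial reads, and -0.57 for striated muscle markers. In B19, B45, and B1 the smooth muscle and pericyte share was mostly Des, with 115075, 69364, and 41855 reads. Rgs5 of the same list had 1489, 3360, and 457. Striated muscle markers were highest in these tumors too, so the share does not stand for smooth muscle and pericytes alone. These values are descriptions of 9 libraries that share their scaling, and their part in the pairs was not tested.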

How the data were processed

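Messenger RNA of 6 cell lines and 9 tumors was analysed. The authors deposited raw counts, the reads assigned to each Ensembl gene. According to the methods, poly-A libraries were read as 65-base single ends, aligned to mm10 with TopHat (2.0.12 in the submitters' processing notes), and counted with HTSeq. The strand setting was not given in the sources used here. Which lines are BNC and which NC came from the heads of a supplementary table. The 14 columns of DNA log2 values that the authors deposited, and the chromatin profiles, were not used.

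Tests were run with edgeR 4.0.16 in R 4.3.3 (filterByExpr with a minimum count of 10, TMM, glmQLFit, and glmQLFTest). The lines were fitted alone without covariates, and the tumors together with both line groups against the mean of the groups. Calls needed more than 2-fold change and a p under 0.01 after Benjamini-Hochberg adjustment over all genes tested. Standard errors were derived from the log2 fold change and its F statistic. Nothing states that lines of a group came from separate mice, so p-values measure the spread between these samples only. CPM are TMM-scaled, and for correlations a prior count of 2 was added. Intervals and floors of 3 counts cover counting error only. The scripts were tested on simulated counts.

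DESeq2 1.42.0, library size without TMM, other filters, a term for the run number, the sum of close pairs, and leaving out each library were alternatives. Leaving out the 4 tumors B1, B2, B19, and B45, leaving out Gm42418 and Lars2, the pairs without B1, DESeq2 on summed pairs, and the replicate block were chosen after seeing the data. The members and lists were chosen with earlier results of these data known. Values in every line are given for members past an adjusted p under 0.05, the laminin receptor chains, and the laminin chains with over 3 counts, and the others by range. The pathway genes named are those called in the lines and the 3 with the smallest p in each direction in tumors. Positions and exon lengths come from GENCODE M21 (GRCm38), and symbols were found for 98.5% of the 27197 identifiers. Figures were drawn in Python with matplotlib 3.10.9.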

Additional observations from a re-analysis of the deposited data

Results flagged for a closer look

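Among 31 chains over the 9 tumors, 2 had a single tumor far from the rest by Dixon's criterion, which chance alone gives for about 1 in 20 groups. Itgb8 was low in tumor B1, at a log2 CPM of 2.13 where the nearest tumor had 2.98. B1 is the tumor with the fewest reads. Lamc3 was low in tumor B28, at a log2 CPM of -1.79 where the nearest had 1.30, from 4 reads.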

How the results depend on the processing

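Between BNC and NC lines, the count of members called (3) was 9 with DESeq2, 0 with the close pairs summed, 5 with DESeq2 on the summed pairs, 0 with the run number as a term, 0 with the replicate block, and 9 at an adjusted p under 0.05. The pathway genes called (2) were 8, 0, 4, 0, 0, and 9 under those settings. With all 15 libraries in one model 0 pathway genes were called. In that model 4 of 31 members tested were called, all lower, against 2.65% of all genes. Leaving out 1 library gave 0 to 9 members and 0 to 11 pathway genes, against 0.0 to 19.7% of all genes. Of 11 members followed singly, the direction turned for Itgb4 alone, to -0.43 without JB97 (-0.43 to 2.81 over the lines left out). Itga6 lost its call in 7 of 16 alternatives, Itgb2 in 7 of 15, and Lama1 in 8 of 16, and Lama5 gained one in 4 of 16. Of the members past only an adjusted p of 0.05, Itga7 was over it in 8 of 15, Itga10 in 10 of 16, Itgb7 in 6 of 15, and Lama5 in 6 of 16. In tumors against lines, the members called (17) fell to 7 where at least 10 counts in every sample were asked for. That filter takes out chains scarce in any library and left 17 members tested. Leaving out 1 library gave 13 to 18 members and 14 to 17 pathway genes. The share of all genes called is not given for these tumor settings, so their counts are not a result about the members. Lamc1 lost its call in 18 of 22 alternatives, Itga8 in 9 of 21, Lamb3 in 8 of 21, Lama3 in 4 of 21, and Itga3 and Itgb5 in 1 of 22 each. Correlated pairs called were 2 with library size only and 0 in the other alternatives. Library size only moved the median log2 fold change of all genes to -0.14 in the lines and 0.27 in the tumors. The columns carry no replicate numbers, so the replicate block, added after seeing the data, used those in the table heads that gave the genotypes, where JB91 and JB97 share the number 2. Deviations from the group means had r of 0.10, -0.07, and 0.08 in the same-numbered pairs, so the numbers were not taken to pair the lines. With the block edgeR called 0 members (8 at an unadjusted p under 0.05) and 0.0% of all genes, with an adjusted p of 0.0881 for Itga6. Scarce chains are limited by depth, since 3 reads were worth 0.124 to 0.231 CPM in a line and up to 0.856 CPM in tumor B1. Where a count changed, the cause was not tested.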
